A study of Mus musculus with 27 samples.

Results

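Lungs that had received 15 Gy were compared with lungs that had received 12.5 Gy, over the strains C57L/J, CBA/J and C57BL/6J together. The comparison took 18 of the 27 arrays of the series, 9 at 15 Gy and 9 at 12.5 Gy, which is 3 mice of each strain at each dose with 1 array per mouse. The members were chosen by the dose on the labels alone, and strain entered the test as a blocking factor. All mice were female and from inbred strains without a named mutation or transgene, aged 10 to 12 weeks when exposed, and lung RNA was taken 24 h after 1 exposure of the thorax to X-rays (320 kVp, 67 cGy per min). Head, abdomen and forelimbs were shielded. The remaining 9 arrays came from sham-irradiated mice (0 Gy) of the same strains, which are used below to show how far a gene moves after irradiation. The labels name separate biological replicates and do not name shared litters or days.

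X-rays break DNA, and within hours the tumour suppressor p53 drives a set of genes that stop the cell cycle, repair DNA or start cell death. Proliferating cells leave the cycle and lymphocytes, among the most radiosensitive cells of the body, are lost. The lung also answers oxidative stress through NRF2, a transcription factor that induces glutathione synthesis and detoxifying enzymes. A comparison of 2 high doses asks whether these responses still grow with dose at 24 h or have come to the same level.

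No gene differed between the doses after correction for the number of genes tested. Of 18194 genes, 0 passed a Benjamini-Hochberg adjusted p of 0.05 in limma, and the lowest adjusted p was 0.9994. At an unadjusted p below 0.01, the limit the study's methods set, 83 genes were higher at 15 Gy (0.456% of the genes tested) and 25 were lower (0.137%), together 0.594%. At an unadjusted p below 0.05 there were 681 genes (3.74%), where p-values spread evenly would place 909.7. The share of higher genes among those below 0.01 rested on the scaling, since there were 49 higher genes and 48 lower genes once the arrays were quantile-normalized, and 44 and 46 once each was centred on its median. No gene had every array at 15 Gy above every array at 12.5 Gy of the same strain in all 3 strains (0%), and none had them all below (0%).

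**Figure D1:**
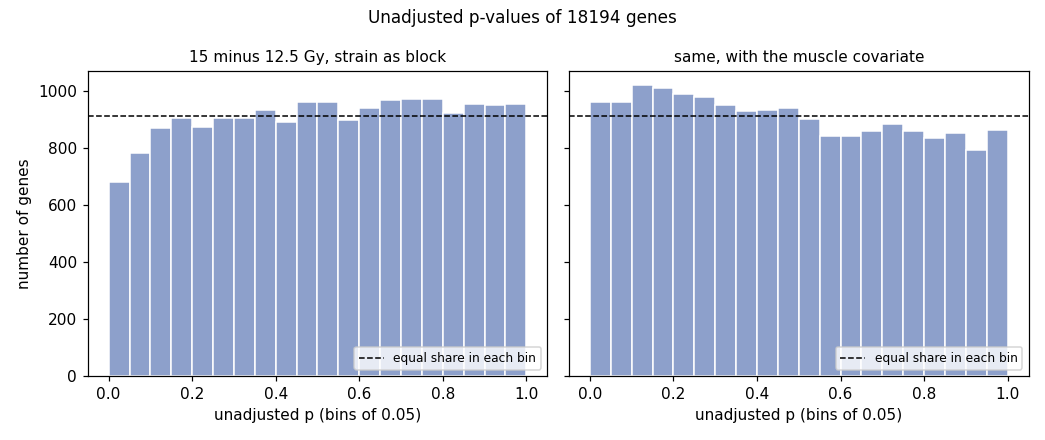
Unadjusted p-values of the difference between 15 and 12.5 Gy for 18194 genes in bins of 0.05 (x axis), with the number of genes in each bin (y axis). The dashed line is an equal share of 909.7 genes per bin. The lowest bin held 681 genes in the fit with strain as block (left) and 959 genes in the fit with the muscle covariate added (right).

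The difference was bounded for most genes. Values are log2 of the deposited intensity, so that 1 unit is a 2-fold difference. The median standard error of the difference was 0.144, and the median difference over all genes was 0.01. The 95% interval of the difference lay within 1 log2 unit of 0 for 82.4% of all genes and for 96.1% of the 13824 genes with a mean log2 intensity of at least 6. Among the 4370 dimmer genes this share was 39.1%, so for most of those a 2-fold difference could not be told from none.

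Both doses stood far from sham. Against 0 Gy, 579 genes rose and 1046 fell at 12.5 Gy (3.18% and 5.75%), and 896 rose and 1247 fell at 15 Gy (4.92% and 6.85%), at an adjusted p below 0.05. The sham arrays are shared by both comparisons. In the same direction at both doses were 1283 genes. For 97.1% of these the interval of the difference between 15 and 12.5 Gy lay within 1 log2 unit of 0, and 8 of them (0.624%) had an unadjusted p below 0.01 for that difference, against 0.594% of all genes. These genes were picked with the same irradiated arrays, so the shares are a description.

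Most of the p53 targets rose against sham at each dose, and the list differed little between the doses. Of 38 p53 targets measured, 0 passed an unadjusted p of 0.01 between the doses, 24 were above and 14 below 0, and the median difference was 0.02, against 0.01 over all genes. In 37 of the 38 the interval lay within 1 log2 unit of 0. Against sham the median of the same list was 0.62 at 12.5 Gy and 0.64 at 15 Gy, with 23 genes up and 0 down at 12.5 Gy and 22 up and 1 down at 15 Gy. Of these 38 genes 15 had a negative slope and 2 a positive slope on the muscle covariate described below, at an adjusted p below 0.05, against 9.52% of all genes with a negative slope and 10.3% with a positive one.

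Cdkn1a, which encodes the cell cycle inhibitor p21, measured 10.01 ± 0.26 at 0 Gy, 13.16 ± 0.24 at 12.5 Gy and 13.19 ± 0.32 at 15 Gy (SD, n = 9 each). The arrays at 15 Gy ran from 12.73 over a median of 13.15 to 13.59, and those at 12.5 Gy from 12.83 over 13.18 to 13.52, so the groups overlapped over almost their whole range. The difference was 0.03 with a 95% interval of -0.23 to 0.28. All irradiated arrays lay above the highest sham array (10.35). Ccng1, encoding cyclin G1, differed by 0.08 (-0.08 to 0.24). Phlda3, a brake on Akt signalling, differed by 0.05 (-0.13 to 0.23). The interval of Mdm2, the ubiquitin ligase that degrades p53, was wider (-0.10, from -0.47 to 0.26), and its lowest array, at 9.98, was at 15 Gy.

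Eda2r, a receptor of the tumour necrosis factor receptor family, differed by 0.13 (-0.19 to 0.44), and Ddias, an anti-apoptotic gene, by 0.16 (-0.23 to 0.56). Aen, an apoptosis-enhancing nuclease, was 10.33 ± 0.28 at 15 Gy and 10.48 ± 0.32 at 12.5 Gy, a difference of -0.15 (-0.44 to 0.14). Ces2e, a carboxylesterase outside the list that is also induced, differed by 0.17 (-0.19 to 0.53). Celf5, an RNA-binding protein that also lies outside the list, had a larger difference (0.39, interval 0.01 to 0.78, adjusted p 0.9994 in limma). It measured 8.54 ± 0.48 at 15 Gy and 8.15 ± 0.32 at 12.5 Gy, with a sham mean of 5.86. Within the p53 list the highest difference was 0.27.

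**Figure D2:**
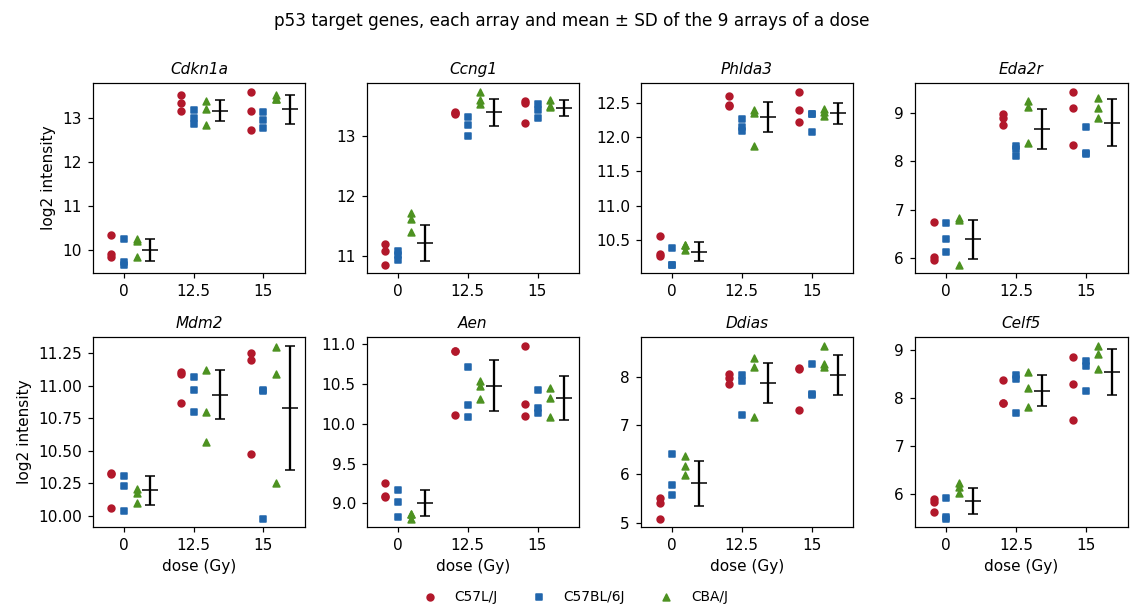
Log2 intensity (y axis) of 8 genes induced by irradiation at 0, 12.5 and 15 Gy (x axis), 1 point per array, coloured by strain, with the mean and SD of the 9 arrays of a dose in black. Cdkn1a averaged 13.16 at 12.5 Gy and 13.19 at 15 Gy, both above the sham arrays, and the points of both irradiated doses overlap in every panel. Celf5 is not a member of the p53 list.

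Many genes of cell division fell against sham at each dose. Of 47 mitosis genes 24 fell and 1 rose at 12.5 Gy and 27 fell and 1 rose at 15 Gy, and of 32 DNA replication genes 16 fell and 0 rose at 12.5 Gy and 13 fell and 2 rose at 15 Gy. Rrm2, the regulated subunit of ribonucleotide reductase, measured 8.79 ± 0.40 at 0 Gy, 7.36 ± 0.21 at 12.5 Gy and 7.48 ± 0.32 at 15 Gy. Its difference between the irradiated doses was 0.12 (-0.15 to 0.39). Mki67, the proliferation marker Ki-67, spread widely, with 5.55 to 8.11 at 15 Gy and 2.77 to 6.77 at 12.5 Gy, and its interval of -0.47 to 1.51 bounds little. The highest Mki67 value at 15 Gy came from C57L/J replicate 3 and the lowest at 12.5 Gy from C57BL/6J replicate 1.

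Of 47 mitosis genes 29 were above and 18 below 0, the median difference was 0.06, and 1 passed the unadjusted p of 0.01 (0.594% of all genes did). That gene was Spc25, a component of the NDC80 kinetochore complex (0.44 ± 0.14, SE, unadjusted p by limma 0.0070). Its partner in the same complex, Nuf2, ran the other way (-0.45 ± 0.20, unadjusted p by limma 0.036), and neither passed adjustment. Of 32 DNA replication genes 22 were above 0 with a median of 0.13 and 0 at an unadjusted p below 0.01. Rfc5, a subunit of the clamp loader, had the lowest p of them (0.28 ± 0.11, SE). In the DNA repair list the median was 0.02 over 24 genes, and 0 passed 0.01.

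Tissue other than lung was unevenly spread over the arrays. Lung was present on every array, with Sftpc, the surfactant protein of type II cells, between 14.23 and 14.93 on the 27 arrays. Skeletal muscle was present on some. The mean of Ckm and Acta1, the muscle creatine kinase and skeletal actin, served as a tissue covariate. It ran from 7.18 over a median of 8.86 to 14.62 at 15 Gy, and from 6.91 over 9.56 to 14.93 at 12.5 Gy. The difference of -0.13 was far inside this spread (exact permutation test within strains, 8000 permutations, two-sided, p 0.9565).

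Within strains it was unequal. Of the 18 irradiated arrays 7 lay more than 2 log2 units above the median of the 27 arrays. At 15 Gy these were C57L/J replicate 3 and C57BL/6J replicates 2 and 3, and at 12.5 Gy C57BL/6J replicates 1 and 2 and CBA/J replicates 2 and 3. The lowest of them was at 11.51 and the highest irradiated array not among them at 9.56. Of the sham arrays, CBA/J replicates 1 and 2 also lay above this limit, the first of them at 11.82, and they enter the comparisons with 0 Gy. All 20 measured genes of the skeletal muscle list had a positive slope on the covariate at an adjusted p below 0.05. The median dose difference of that list was 2.23 in C57L/J, 1.03 in C57BL/6J and -4.37 in CBA/J. Without the 7 irradiated arrays, C57BL/6J kept only replicate 1 at 15 Gy and replicate 3 at 12.5 Gy. CBA/J then kept only replicate 1 at 12.5 Gy, and C57L/J lost only replicate 3 at 15 Gy. Fits without the 7 arrays therefore weigh C57L/J most.

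Other tissues came with the muscle on some arrays. Tg, thyroglobulin, was at 14.30 on C57L/J replicate 3 and 13.46 on C57BL/6J replicate 2 at 15 Gy and at 15.07 on CBA/J replicate 3 at 12.5 Gy, and at most at 5.63 on the other 15 irradiated arrays. Glycam1, a mucin of lymph node venules, was at 12.38 and 10.52 on those same arrays at 15 Gy, and at most at 6.40 at 12.5 Gy. Of the sham arrays, CBA/J replicate 3 also had Glycam1 at 10.52, and it enters the comparisons with 0 Gy. Krt13, a keratin of squamous epithelium, was at 9.88 or above on the irradiated arrays with muscle, except CBA/J replicate 3 at 12.5 Gy (5.48). On the irradiated arrays without muscle it was at most at 5.62. Of 18194 genes, 3598 had a slope on the covariate at an adjusted p below 0.05, 1866 of them positive. With the covariate in the fit 108 genes were higher and 54 lower at 15 Gy at an unadjusted p below 0.01 (0.594% and 0.297%).

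A single gene passed the adjusted p with the covariate (0.0055% of those tested). 4930429F24Rik was 5.64 ± 0.38 at 15 Gy and 6.12 ± 0.21 at 12.5 Gy. Its arrays ran from 5.28 over 5.46 to 6.17 at 15 Gy and from 5.85 over 6.16 to 6.38 at 12.5 Gy, and the groups overlapped. The difference was -0.48 ± 0.13 (SE, adjusted p 0.9994) without the covariate and had an adjusted p of 0.015 in limma with it. At 0 Gy it averaged 5.67, which is close to its level at 15 Gy. Without the 7 arrays with muscle another gene, BC051019, alone passed, again 0.0055%, with an adjusted p of 0.026 in limma (difference 0.95 without these arrays and 0.56 with them).

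**Figure D3:**
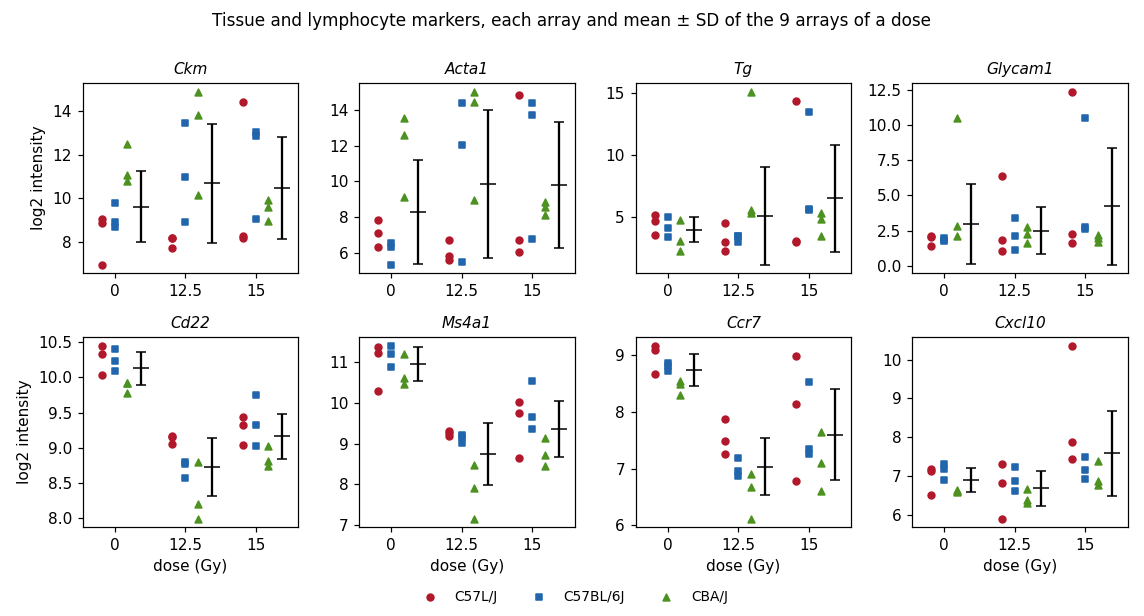
Log2 intensity (y axis) of markers of muscle (Ckm, Acta1), thyroid (Tg), lymph node (Glycam1), B cells (Cd22, Ms4a1) and T cells (Ccr7) and of the chemokine Cxcl10 at 0, 12.5 and 15 Gy (x axis), 1 point per array, with the mean and SD of 9 arrays. Ckm and Acta1 spread over several log2 units at each dose, and Tg is above 13 on 3 irradiated arrays.

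Most genes of the NRF2 list lay higher at 15 Gy, and their median difference was highest in CBA/J. Of its 16 genes 13 were above 0, the median difference was 0.20 (0.01 over all genes), and 3 were higher at an unadjusted p below 0.01, against 0.456% of all genes. None passed the adjusted p. Against sham the median was 0.29 at 12.5 Gy, with 2 genes up, and 0.42 at 15 Gy, with 8 genes up. By strain the median difference between the doses was 0.06 in C57L/J, 0.09 in C57BL/6J and 0.57 in CBA/J.

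Slc7a11, the cystine transporter that feeds glutathione synthesis, differed by 0.72 ± 0.20 (SE, interval 0.29 to 1.15, adjusted p 0.9994). In CBA/J it measured 8.33, 9.00 and 8.42 at 15 Gy and 7.30, 7.76 and 6.70 at 12.5 Gy, without overlap, as 8.5% of all genes did in that direction in this strain. In C57L/J it measured 7.09, 6.81 and 6.87 at 15 Gy and 6.31, 7.09 and 6.97 at 12.5 Gy, so the groups overlapped. Its sham mean over strains was 5.90.

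Nqo1, a quinone reductase, differed by 0.47 ± 0.14 (SE). In CBA/J it was at 9.17, 9.70 and 9.43 at 15 Gy and at 8.43, 9.15 and 8.48 at 12.5 Gy. Cbr3, a carbonyl reductase, differed by 0.45 ± 0.15 (SE), with 10.79, 11.12 and 10.83 at 15 Gy and 9.92, 10.50 and 9.47 at 12.5 Gy in CBA/J. In all 3 genes the highest array at 12.5 Gy of CBA/J was replicate 2.

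Gpx2, a glutathione peroxidase of epithelia, differed by 0.44 ± 0.18 (SE), and its CBA/J arrays were at 11.44, 11.51 and 11.49 at 15 Gy and 10.27, 11.12 and 10.59 at 12.5 Gy. The subunits of glutamate-cysteine ligase, the rate-limiting enzyme of glutathione synthesis, differed in CBA/J by 0.73 ± 0.18 (Gclc) and 0.72 ± 0.18 (Gclm, SE). In C57L/J the difference was -0.30 for Gclc and 0.01 for Gclm. In CBA/J the list genes Me1 (-0.51), Abcc1 (-0.35) and Gstm1 (-0.18) went the other way without the muscle covariate. With it their CBA/J differences were 0.10 for Me1, 0.01 for Abcc1 and -0.04 for Gstm1. Me1 and Abcc1 had positive slopes on the covariate (0.15 and 0.09, adjusted p by limma 0.00096 and 0.00019). Gsta2, a glutathione transferase outside the list, differed by 1.38 ± 0.28 (SE) in CBA/J and by 0.10 in C57L/J. It was named for its low p-value in CBA/J, so its value there adds no support. Probe sets of the Gsta family can share sequence, so its members may not be told apart.

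The arrays of CBA/J with muscle were both at 12.5 Gy, and 4 of the 16 genes had a slope on the muscle covariate, 2 of them positive. With the covariate the difference within CBA/J was 1.31 for Slc7a11, 1.04 for Nqo1 and 1.03 for Cbr3. Without the 7 arrays with muscle the median of the list over strains was 0.25, with 15 of 16 genes above 0 and 0 at an unadjusted p below 0.01. Without the CBA/J arrays it was 0.08, with 10 of 16 above 0 and 0 at an unadjusted p below 0.01. The interaction of strain and dose had an unadjusted p in limma of 0.039 for Slc7a11 and 0.40 for Nqo1, and neither passed adjustment.

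**Figure D4:**
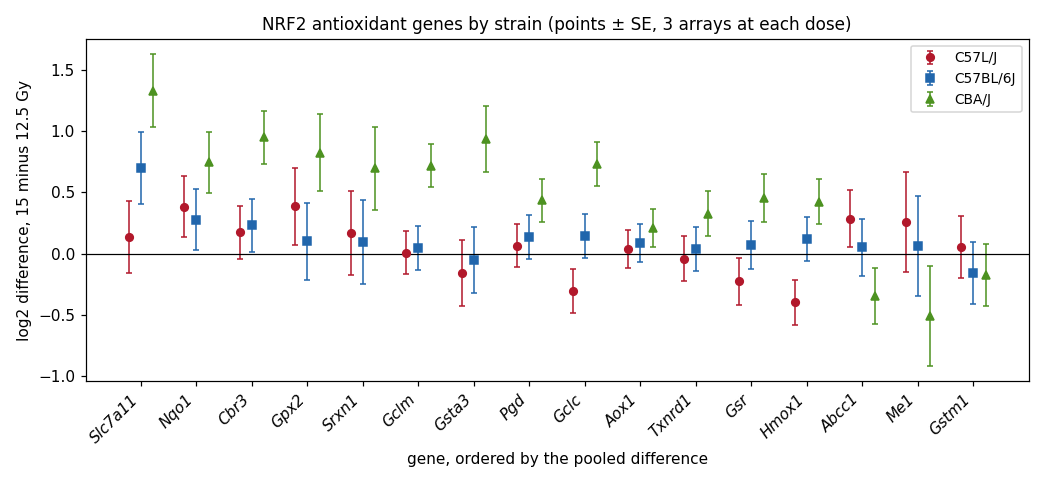
Log2 difference between 15 and 12.5 Gy (y axis, points ± SE) of the 16 genes of the NRF2 list in each strain, with genes (x axis) in the order of the pooled difference. Slc7a11 in CBA/J is the highest point at 1.33, and the C57L/J point of the same gene is at 0.13.

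Most genes of the B cell, T cell and natural killer lists lay higher at 15 Gy than at 12.5 Gy when all arrays were used. Most of them did not when the arrays with muscle were left out. In bulk tissue fewer cells of a type and less RNA per cell cannot be told apart. Of 26 B cell genes, 22 were below sham at 12.5 Gy and 22 at 15 Gy. Between the doses 23 of 26 were above 0, the median was 0.32 (0.01 over all genes), 7 were higher at an unadjusted p below 0.05 (2.5% of all genes) and 1 below 0.01.

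That gene was Cd22, a B cell lectin that damps receptor signalling, at 10.13 ± 0.24 at 0 Gy, 8.72 ± 0.41 at 12.5 Gy and 9.16 ± 0.32 at 15 Gy (difference 0.44 ± 0.13, SE, adjusted p 0.9994). The arrays ran from 8.74 over 9.04 to 9.75 at 15 Gy and from 7.99 over 8.80 to 9.17 at 12.5 Gy. Ms4a1, encoding CD20, differed by 0.62 ± 0.22 (SE), with 8.45 to 10.53 at 15 Gy and 7.16 to 9.30 at 12.5 Gy. Its highest array was C57BL/6J replicate 2 at 15 Gy, which carried Glycam1, and its lowest CBA/J replicate 3 at 12.5 Gy. Cxcr5, the homing receptor for follicles, differed by 0.49 ± 0.17 and Cd79b, part of the B cell receptor, by 0.47 ± 0.17 (SE).

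Without the 7 arrays with muscle the median of the B cell list was -0.02, with 10 of 26 genes above 0. That fit weighs C57L/J most and keeps few C57BL/6J arrays. With all arrays the median was 0.16 in C57L/J, 0.64 in C57BL/6J and 0.31 in CBA/J. The part of muscle and the part of strain in this change cannot be told apart. Without the 2 irradiated arrays with Glycam1 above 10, the median of the B cell list was 0.18, with 20 of 26 above 0. With the muscle covariate it was 0.33. The mean level of the 5 lymph node genes ran from 5.23 to 8.71 at 15 Gy and from 5.42 to 7.14 at 12.5 Gy. The part of lymph node tissue in these differences was not tested.

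Of 28 T cell genes 21 were above 0 with a median of 0.18 and 0 at an unadjusted p below 0.01. The median was -0.03 without the arrays with muscle and -0.02 without those with Glycam1. With the muscle covariate it was 0.19, with 23 of 28 above 0 and 1 higher at an unadjusted p below 0.01. Cd3g, a chain of the T cell receptor complex, was at 7.08 to 9.63 at 15 Gy and at 6.70 to 7.70 at 12.5 Gy, and its highest array was C57L/J replicate 3. Ccr7, which guides cells into lymph nodes, differed by 0.56 ± 0.26 (SE). The list of natural killer and cytotoxic genes had a median of 0.15 over 15 genes, that of MHC class II 0.09 over 9 genes and that of dendritic cells 0.09 over 14 genes. Without the arrays with muscle these medians were -0.09, -0.07 and -0.10, and with the muscle covariate 0.14, 0.09 and 0.10. Each of the 3 lists had 0 genes at an unadjusted p below 0.01.

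Interferon-stimulated genes had a median of 0.13, with 31 of 35 above 0 and 0 at an unadjusted p below 0.01. Cxcl10, a chemokine induced by interferon, was at 7.87, 7.44 and 10.36 in C57L/J at 15 Gy and at 5.90, 7.30 and 6.83 in C57L/J at 12.5 Gy. The value of 10.36 belonged to C57L/J replicate 3. Without the arrays with muscle the median of the list was -0.09, with 8 of 35 above 0, and without those with Glycam1 it was -0.06. On the muscle covariate 9 of the 35 genes had a positive slope. With that covariate in the fit the median was 0.13, with 32 of 35 above 0. In that fit 2 were higher at an unadjusted p below 0.01, against 0.594% of all genes.

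Among immunoglobulin and plasma cell genes 12 of 16 were above 0, with a median of 0.14, and 1 passed 0.01. The median was 0.03 with 8 of 16 above 0 without the arrays with Glycam1, and -0.04 with 7 of 16 above 0 without the C57BL/6J arrays. Without the arrays with muscle it was 0.10 with 12 of 16 above 0, and with the muscle covariate 0.15 with 12 of 16 above 0. The gene that passed was Igkv4-68, a kappa variable segment with dim signal. In C57BL/6J it was at 6.32, 6.61 and 5.99 at 15 Gy and at 3.92, 4.49 and 3.95 at 12.5 Gy. These arrays did not overlap, as 3.89% of all genes did in that direction in C57BL/6J. A filter at a mean log2 of 6 removed it and left 13 genes of the list, 0 of them higher at an unadjusted p below 0.01. In CBA/J the same segment was at 5.44, 3.79 and 4.80 at 15 Gy and at 4.69, 5.07 and 3.53 at 12.5 Gy. Jchain, which joins antibody units, differed by 2.31 ± 0.75 in C57BL/6J and by -0.81 in CBA/J. Kappa segments resemble each other, and which segment a probe set reads is uncertain.

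Myeloid lists had small medians with all arrays. The median was -0.02 for 15 alveolar macrophage genes, 0.02 for 16 genes of monocytes and interstitial macrophages, -0.14 for 17 neutrophil genes and 0.12 for 19 chemokine ligands, and 0 genes of these lists passed 0.01 in either direction. Without the arrays with muscle the median was -0.19 for alveolar macrophage genes, -0.13 for monocyte genes, -0.29 for neutrophil genes and -0.02 for chemokine ligands. Without the arrays with Glycam1 the neutrophil median was 0.04, with 10 of 17 above 0. In the mast cell and basophil list (median -0.11 over 12 genes) Mcpt8, a basophil protease, differed by 0.99 ± 0.33 (SE), with 4.29 to 6.10 at 15 Gy and 3.03 to 5.59 at 12.5 Gy, a range in which signal is dim.

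Epithelial and vascular lists had shifts of the other sign. Of 31 endothelial genes 25 were below 0 with a median of -0.09, and of 17 ciliated cell genes 14 were below 0 with a median of -0.11, with 0 at an unadjusted p below 0.01 in both. Kdr, the receptor of vascular endothelial growth factor, was 11.73 ± 0.40 at 15 Gy and 12.01 ± 0.39 at 12.5 Gy. Its lowest array, at 11.07, was C57L/J replicate 3 at 15 Gy. By strain the endothelial median was -0.34 in C57L/J, -0.16 in C57BL/6J and 0.19 in CBA/J, and the ciliated median -0.22, -0.02 and 0.03. Of the endothelial genes 18 had a negative slope on the muscle covariate and 0 a positive one (9.52% and 10.3% of all genes). With the covariate in the fit the endothelial median was -0.10, with 29 of 31 below 0, and the ciliated median -0.12, with 15 of 17 below 0. Without the arrays with muscle both medians were within 0.02 of 0, and without the arrays with Glycam1 the endothelial median was 0.10.

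Aplnr, the apelin receptor, fell after irradiation and measured 12.65 ± 0.51 at 0 Gy, 10.87 ± 0.53 at 12.5 Gy and 10.88 ± 0.76 at 15 Gy. The difference between the irradiated doses was 0.00 (-0.30 to 0.31). Type I and type II alveolar lists had medians of -0.05 (16 genes) and -0.03 (17 genes), and the interval of every gene of both lists lay within 1 log2 unit of 0. Without the arrays with Glycam1 the medians were 0.09 (type I, 16 of 16 above 0) and 0.10 (type II, 13 of 17 above 0). The club and secretory list had a median of -0.06 and the neuroendocrine list of 0.09, with 8 of 13 and 4 of 8 intervals that narrow. Matrix and fibrosis genes had a median of -0.04, and all 24 intervals lay within 1 log2 unit of 0.

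Stress and metabolic lists outside the NRF2 pathway showed little difference. Medians were 0.00 for heat shock and unfolded protein genes (18 genes), -0.03 for hypoxia (18), -0.04 for glucocorticoid response (18), -0.06 for the circadian clock (18), 0.05 for immediate early genes (20) and 0.07 for cholesterol synthesis (17), with 0 genes at an unadjusted p below 0.01 in each. Erythroid genes had a median of -0.20 over 9 genes and platelet genes of 0.03 over 12, also with 0 below 0.01. The resistin-like list had a median of -0.11 over 14 genes, and of 0.00 in C57L/J, 0.29 in C57BL/6J and -0.74 in CBA/J. The median was -0.26 for cardiac muscle (12 genes), -0.11 for squamous epithelium (11), -0.03 for thyroid (6), 0.02 for thymocytes (10), 0.23 for lymph node (5) and -0.02 for fat (11). Strains differed widely behind the pooled medians of squamous epithelium and fat. The squamous median was 2.22 in C57L/J, 0.23 in C57BL/6J and -3.02 in CBA/J, and that of fat 1.33, 0.49 and -1.94. Only 2 of 11 squamous and 1 of 11 fat intervals lay within 1 log2 unit of 0.

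**Figure D5:**
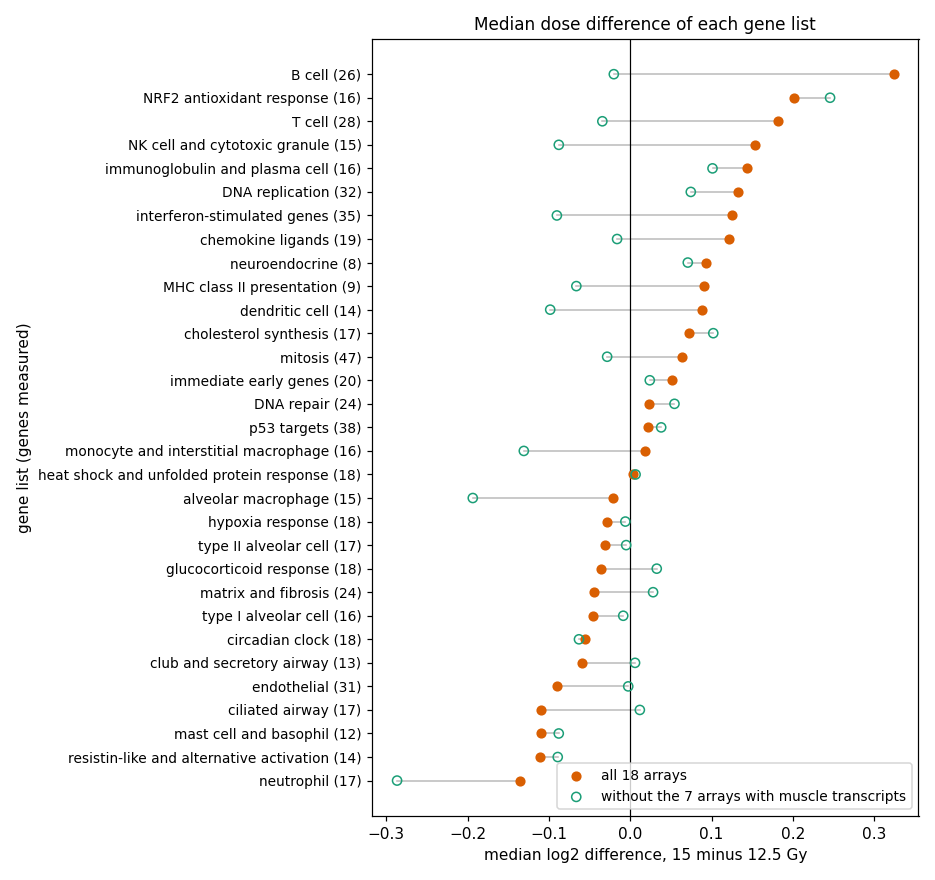
Median log2 difference between 15 and 12.5 Gy (x axis) of each list of cell response, immune and lung genes (y axis, number of genes in parentheses), with all 18 arrays (filled) and without the 7 arrays with muscle transcripts (open). The B cell list moves from 0.32 to -0.02 between the fits, while the NRF2 list stays above 0 (0.20 and 0.25) and the p53 list stays near 0 (0.02 and 0.04).

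Single genes with the lowest p-values are given as candidates that did not pass. Among those higher at 15 Gy, 1500002F19Rik differed by 0.54 ± 0.13 (SE), Acsf2, a mitochondrial acyl-CoA synthetase, by 0.43 ± 0.11 and Saa1, an acute phase protein, by 0.70 ± 0.18. Saa1 was at 5.88 to 7.45 at 15 Gy and at 5.20 to 6.37 at 12.5 Gy, with a sham mean of 5.99. Acsf2 measured 8.04 ± 0.25 at 0 Gy, 7.40 ± 0.35 at 12.5 Gy and 7.83 ± 0.30 at 15 Gy. Palb2, the partner of BRCA2 in homologous recombination, differed by 0.36 ± 0.09 and Tcirg1, a subunit of the vacuolar proton pump, by 0.32 ± 0.09.

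Traf4, a signalling adaptor, differed by 0.54 ± 0.17 (SE) and by 0.56 in C57L/J, 0.55 in C57BL/6J and 0.49 in CBA/J, which with the muscle covariate were 0.35, 0.49 and 0.80. Its arrays were at 7.03 to 8.47 at 15 Gy and at 6.87 to 7.90 at 12.5 Gy, so they overlapped. Lower at 15 Gy were Chrna4, a nicotinic receptor subunit (-0.52 ± 0.12, unadjusted p by limma 0.00043), Gnal, an olfactory G protein subunit (-0.56 ± 0.16), Fry (-0.30 ± 0.09), Plekha2 (-0.23 ± 0.07) and Kcnip4 (-0.38 ± 0.12, SE). Chrna4 was at 5.72 over a median of 6.09 to 6.58 at 15 Gy and at 6.07 over 6.69 to 7.04 at 12.5 Gy, near the dim end of the arrays. The Kcnip4 difference was -0.83 in C57L/J, -0.05 in C57BL/6J and -0.25 in CBA/J. The study lists this gene as changed between these doses in C57BL/6J. For 1500002F19Rik, Gnal and Fry the sign turned when the most variable probe set stood for the gene. It also turned for Aen and Mdm2, described above, and for Gria1, described below.

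The dose difference of no gene differed between strains after adjustment. The interaction of strain and dose had 175 genes at an unadjusted p below 0.01 (0.962%) and 0 at an adjusted p below 0.05, with 900 below 0.05 unadjusted (4.95%). Within strains, 99 genes passed an unadjusted p of 0.01 in C57L/J (0.544%), 82 in C57BL/6J (0.451%) and 359 in CBA/J (1.97%), with 0 at an adjusted p below 0.05 in each. These counts turned on single arrays. Without CBA/J 12.5 Gy replicate 1, the array of that group without muscle, the CBA/J count was 841 and the interaction count 394, and without CBA/J 12.5 Gy replicate 3 the CBA/J count was 202. In C57L/J the count was 179 without replicate 1 and 276 without replicate 2 at 15 Gy, and in C57BL/6J it was 124 without replicate 3 at 12.5 Gy.

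Among genes with a mean log2 intensity of at least 6, Hspa1b, Srgap3 and Hspa1a had some of the lowest interaction p-values (unadjusted p by limma 0.00034 for Hspa1b, 0.00037 for Srgap3 and 0.00040 for Hspa1a). Hspa1a and Hspa1b, near-identical genes of the inducible chaperone HSP70, ran in parallel. Hspa1b was at 10.00, 10.42 and 10.40 in CBA/J at 15 Gy and at 11.14, 11.81 and 11.83 in CBA/J at 12.5 Gy, without overlap, as 6.58% of all genes did in that direction in CBA/J. In C57L/J it was at 11.26, 10.66 and 11.76 at 15 Gy and at 10.55, 10.80 and 10.19 at 12.5 Gy. With the muscle covariate the CBA/J difference of Hspa1b was -1.01, against -1.32 without it. Nr4a1, an immediate early nuclear receptor, differed by -1.27 in CBA/J and by 0.82 in C57L/J, and its highest array (11.80) was CBA/J replicate 3 at 12.5 Gy, which carried muscle and thyroid transcripts.

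The club and secretory list had a median of -0.11 in CBA/J, and neither gene described next passed the adjusted p. Scgb3a1, a secretoglobin of airway epithelium, was at 12.37, 9.76 and 11.15 in CBA/J at 15 Gy and at 13.41, 13.53 and 14.50 in CBA/J at 12.5 Gy, without overlap (6.58% of all genes). Bpifb1, a secreted protein of the large airways, was at 9.96, 8.93 and 9.83 in CBA/J at 15 Gy and at 10.76, 12.33 and 12.77 in CBA/J at 12.5 Gy, also without overlap, and the last 2 of these values came from the arrays with muscle. Bpifb1 had a positive slope on the muscle covariate (0.27, adjusted p by limma 0.0072). Its CBA/J difference was -2.38, and -1.64 with the covariate, and its pooled difference was -0.62, and 0.01 without the arrays with muscle. The sham arrays of all strains spread as widely, from 10.56 to 14.36 for Scgb3a1 and from 7.67 to 13.56 for Bpifb1. In C57L/J the difference was 0.63 for Scgb3a1 and 0.94 for Bpifb1.

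Retnla, a resistin-like protein of macrophages and airway cells, was at 14.16, 13.76 and 13.64 in C57BL/6J at 15 Gy and at 13.21, 12.97 and 12.51 in C57BL/6J at 12.5 Gy, a difference of 0.95 ± 0.26 (SE). It was -0.23 in C57L/J and -0.43 in CBA/J, and the interaction had an unadjusted p in limma of 0.0043. Pon1, a paraoxonase carried by lipoproteins, differed by 0.34 in C57L/J, -0.49 in C57BL/6J and -0.81 in CBA/J (unadjusted interaction p by limma 0.0010). Cyp26b1, which degrades retinoic acid, differed by 0.89 in C57L/J, 1.41 in C57BL/6J and -1.33 in CBA/J.

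Gk5, a glycerol kinase-like gene, was at 7.63, 7.38 and 7.77 in C57L/J at 15 Gy and at 6.66, 6.70 and 6.62 in C57L/J at 12.5 Gy, and its CBA/J difference was -0.04. Tnfrsf4, the T cell costimulator OX40, was at 8.18, 8.33 and 8.31 in C57L/J at 15 Gy and at 7.12, 7.44 and 7.37 in C57L/J at 12.5 Gy, and differed by 0.08 in CBA/J. In C57L/J 4.36% of all genes had every array at 15 Gy above every array at 12.5 Gy, as these genes did. Auts2 and Gria1, a neuronal regulator and a glutamate receptor subunit that the study names, differed by -0.24 (-0.49 to 0.00) and -0.28 (-0.71 to 0.15) over the strains. With the most variable probe set the difference of Gria1 was 0.02.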

How the data were processed

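Female mouse lung RNA was measured on Affymetrix arrays, 1 per mouse. The authors deposited linear intensity values per probe set, and their processing notes name Expression Console 1.1. The 2% trimmed mean was 500 on every array. The study's methods describe quartile-normalized data, and no further normalization was applied here. Intensities were floored at 1 and taken to log2. The annotation gave 1 symbol to 34958 probe sets, several to 932 and none to 9211. The brightest probe set stood for each of 18194 genes. Precision was limited by the number of arrays. No pair of arrays was identical (highest correlation 0.9588).

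Doses were compared in limma 3.58.1 (R 4.3.3, functions lmFit and eBayes) with strain as block and p-values adjusted by Benjamini-Hochberg over all genes. Strain by dose terms used the same arrays. The scripts were tested on simulated data. P-values within strains and of the interaction measure the spread between mice of a group. The pooled fit has no strain by dose term, so its error also holds differences of the dose effect between strains.

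Named genes were the 10 lowest p-values in each direction with a mean log2 of at least 6, genes passing with the covariate, the 4 lowest p-values of each of 40 lists, the genes with the lowest interaction or within-strain p, and genes named by the study. BC051019, Gclc and Gclm, and the choice of which of the named genes to describe, came after the values were seen. Members and lists were chosen with earlier results of these data known. Alternatives were the muscle covariate, arrays left out, the methods' random variance t test, all 27 arrays, intensity trend, array weights, other probe set choices, a filter, a floor of 32, other normalizations and the replicate number as a block. Leaving out the irradiated arrays with Glycam1 of at least 10 was added after seeing the data. 0 columns belonged to no sample. Figures were drawn with matplotlib.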

Additional observations from a re-analysis of the deposited data

Results flagged for a closer look

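Dixon's test over the 9 arrays of a dose marked 9 values among 138 groups examined, a test by which chance marks about 1 group in 20. At 15 Gy, Aen was highest on C57L/J replicate 2 (10.98, next 10.45). Cd3g (9.63, next 7.99) and Cxcl10 (10.36, next 7.87) were highest on C57L/J replicate 3, an array with muscle, thyroid and lymph node transcripts. At 12.5 Gy, Mki67 was lowest on C57BL/6J replicate 1 (2.77, next 5.18). Rrm2 (7.83, next 7.43) and Nqo1 (9.15, next 8.57) were highest on CBA/J replicate 2, an array with muscle transcripts. Tg (15.07, next 5.59) and Hspa1a (10.40, next 9.69) were highest on CBA/J replicate 3, also with muscle. Glycam1 was highest on C57L/J replicate 1 (6.40, next 3.41). No gene had a strain by dose interaction at an adjusted p below 0.05 in limma, where 175 genes had an unadjusted p below 0.01.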

How the results depend on the processing

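The count of genes at an adjusted p below 0.05 stayed at 0 in the methods' random variance t test and under every alternative but 2, with 1 gene each (with the muscle covariate, 4930429F24Rik, and without the 7 arrays with muscle, BC051019). It was 0 without each array in turn. Genes at an unadjusted p below 0.01 were 83 higher and 25 lower, and 108 higher and 54 lower with the covariate, 50 and 60 without the arrays with muscle, 49 and 48 after quantile normalization, 44 and 46 after median-centring, 91 and 48 with array weights, 96 and 59 without the 2 arrays with Glycam1, 96 and 42 without C57L/J and 54 and 42 without C57BL/6J. A filter at a mean log2 of 6 left 52 higher genes of fewer tested. Without 1 array each, 64 to 102 were higher and 21 to 45 lower, and the lower count was 45 without C57L/J replicate 2, 44 without C57L/J replicate 3 and 38 without C57BL/6J replicate 1, all at 15 Gy. The cause was not tested.

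The interaction count of 175 was 114 with the covariate, 277 without the arrays with muscle, 263 with all 27 arrays, 464 with array weights and 128 to 394 without 1 array each. Within strains the count without 1 array each was 85 to 276 in C57L/J, 83 to 124 for C57BL/6J and 202 to 841 for CBA/J, against 99, 82 and 359 with all arrays. A filter on low values gave 58 for C57L/J and 35 for C57BL/6J, and the 6 CBA/J arrays alone gave 232. Deviations from the group mean correlated at -0.07 to 0.19 between arrays of the same replicate number at the 2 doses of a strain. Between arrays of different number they correlated at -0.28 to 0.23, so the numbers were not taken as pairs. With the replicate number as a block, 103 genes were higher and 35 lower, 169 had an interaction and 197 passed in CBA/J within its 6 arrays. The muscle covariate difference without 1 array each was -0.94 to 0.49. For the interaction or within a strain, 1 or 2 genes passed the adjusted p with a floor of 32 (Nog and Akr1c12 for the interaction), after median-centring or without 1 of several arrays.

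With the most variable probe set the difference was -0.27 for 1500002F19Rik, 0.10 for Gnal and 0.15 for Fry, where with the brightest it was 0.54, -0.56 and -0.30. Depth of signal limits genes of a mean log2 below 6, of which 39.1% had an interval within 1 log2 unit of 0.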
